A study of Mus musculus with 2 samples.

Results

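The genes described here are the 10 that build and load the classical MHC class I complex, or belong to its close relatives, in the intestinal crypt: the heavy chains H2-K1, H2-D1, H2-Q1, H2-Q2 and H2-T3, the light chain B2m, the peptide transporter subunits Tap1 and Tap2, the loading factor Tapbp and the transactivator Nlrc5. They were chosen by name, as 10 of the 27998 genes in the single-cell count matrices, and were read in each of the 10 cell types that the authors annotated, separately in each library. The study asked how microRNAs shape small intestinal development, and this experiment profiled crypt cells of mice that lack miR-375. Single cells of jejunal crypts from 2 male mice of 12 months were sequenced with a 3′ droplet chemistry, 1 library per mouse, both labelled miR-375 knockout and strain C57BL6/2J. Both mice carry the same whole-body deletion, made with CRISPR/Cas9 in FVB x B62J F1 hybrid embryos and followed by at least 3 generations of backcrossing to B6 albino mice. The H2 alleles each mouse carries were not determined, and wild-type cells were not analysed here, so no value below is an effect of the deletion.

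Class I molecules are carried by nearly every nucleated cell and show peptides from the cell's own proteins to CD8+ T cells. Peptides cut by the proteasome are pumped into the endoplasmic reticulum by the TAP1 and TAP2 dimer, and tapasin, the product of Tapbp, holds the empty heavy chain and its light chain β2-microglobulin beside the pump until a peptide is bound. NLRC5 switches these genes on through the conserved X and Y boxes of their promoters. H2-T3 encodes the TL antigen, a nonclassical chain that does not present peptides, binds CD8αα on intraepithelial lymphocytes and is known from the intestinal epithelium.

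All but B2m and Nlrc5 lie in the H2 complex on chromosome 17. In GENCODE M21 (mm10), Tapbp spans chr17:33915899-33929292, H2-K1 chr17:33996017-34000347, Tap1 chr17:34187553-34197225, Tap2 chr17:34203527-34216321, H2-D1 chr17:35262730-35267499, H2-Q1 chr17:35320405-35325099, H2-Q2 chr17:35342242-35346762 and H2-T3 chr17:36185572-36190287. B2m lies at chr2:122147686-122153083 and Nlrc5 at chr8:94434356-94527272. All 10 are protein coding. Promoter sequences from RefSeq (GRCm38.p6, from 250 bases before the start of transcription to 50 after it) were matched for 7 of the 10, leaving out H2-Q1, Tap2 and Nlrc5. Among the epithelial types, B2m, H2-K1, H2-Q2 and H2-T3 were highest in enterocytes by share of counts, and H2-D1 in tuft cells. The 5 promoters below are those of these genes. They come from chr2:122147437-122147736 (+ strand), chr17:34000298-34000597 (- strand), chr17:35262844-35263143 (+ strand), chr17:35342057-35342356 (+ strand) and chr17:36190102-36190401 (- strand). Capitals mark exact matches, on either strand, to 4 short motifs: the interferon response core (GAAA, any 2 bases, GAAA), the core TGACG of the X2 box, the core CCAAT of the Y box, and the core CAAAGTCCA bound by HNF4, a factor of enterocytes.
B2m: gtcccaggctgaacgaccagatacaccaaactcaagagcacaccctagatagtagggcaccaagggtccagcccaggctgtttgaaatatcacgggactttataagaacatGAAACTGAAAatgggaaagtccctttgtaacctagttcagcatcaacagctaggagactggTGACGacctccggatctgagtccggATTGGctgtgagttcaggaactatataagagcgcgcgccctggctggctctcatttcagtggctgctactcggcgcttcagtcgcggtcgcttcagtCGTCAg
H2-K1: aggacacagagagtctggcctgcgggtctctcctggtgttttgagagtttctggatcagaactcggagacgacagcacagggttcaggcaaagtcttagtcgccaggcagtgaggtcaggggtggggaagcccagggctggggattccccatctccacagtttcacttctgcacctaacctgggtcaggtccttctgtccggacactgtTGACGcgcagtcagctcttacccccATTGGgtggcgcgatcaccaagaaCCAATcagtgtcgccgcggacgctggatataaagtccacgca
H2-D1: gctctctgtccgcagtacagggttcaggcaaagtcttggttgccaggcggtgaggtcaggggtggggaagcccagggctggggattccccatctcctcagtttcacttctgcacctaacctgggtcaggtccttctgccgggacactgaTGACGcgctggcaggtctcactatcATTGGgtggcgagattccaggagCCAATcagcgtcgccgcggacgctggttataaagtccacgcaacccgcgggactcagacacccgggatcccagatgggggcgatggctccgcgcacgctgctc
H2-Q2: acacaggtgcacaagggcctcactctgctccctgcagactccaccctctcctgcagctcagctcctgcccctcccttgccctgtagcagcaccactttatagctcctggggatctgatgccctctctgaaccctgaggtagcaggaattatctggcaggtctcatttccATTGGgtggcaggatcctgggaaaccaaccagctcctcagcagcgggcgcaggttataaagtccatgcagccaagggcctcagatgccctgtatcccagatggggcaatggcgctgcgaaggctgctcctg
H2-T3: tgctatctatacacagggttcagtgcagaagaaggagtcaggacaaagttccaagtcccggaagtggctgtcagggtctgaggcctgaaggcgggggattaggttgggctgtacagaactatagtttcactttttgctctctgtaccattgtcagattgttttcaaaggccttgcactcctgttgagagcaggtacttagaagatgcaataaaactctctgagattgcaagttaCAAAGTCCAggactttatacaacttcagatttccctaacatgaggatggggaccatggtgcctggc

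B2m held all 3 of the class I motifs, H2-K1 and H2-D1 held the X2 and Y cores, H2-Q2 held the Y core alone, and H2-T3 held none of these but the HNF4 core, 16 bases before the start. Of the promoters not printed, Tap1 held the X2 and Y cores and Tapbp the Y core. Among 27025 mouse promoters of the same length, 3.49% held the interferon response core, 21.0% the X2 core, 37.9% the Y core and 0.477% the HNF4 core. These letter matches describe the windows only and say nothing of binding. Only exact letters and spacing were searched, so a window without a match can still hold a variant of that motif. No matches of different motifs overlapped in these windows.

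The class I heavy chains are close copies of one another, which limits how 3′ reads can be assigned, since a read that maps to 2 genes equally well is not counted. Of the distinct 50-base stretches in the last 500 bases of each gene's coding transcripts, 18.8% of those of H2-Q1, 16.0% of H2-Q2, 9.60% of H2-K1 and 8.92% of H2-D1 also occurred in a transcript of another gene. For H2-T3 the share was 0.493%, and for B2m, Tap2 and Nlrc5 it was 0. Levels of the H2-Q and H2-K1/D1 genes are therefore uncertain where reads could be lost to a copy. Tap1 also overlaps Psmb9, which lies on the opposite strand at chr17:34181987-34187764.

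The libraries gave 2082 cells (replicate 1) and 1193 cells (replicate 2) after the authors' filters, with 44017234 and 22163354 unique molecules (UMIs) and medians of 16475 and 15232 UMIs per cell. The libraries shared 0 cell barcodes. Enterocytes gave 931 and 382 cells, and the smallest types were secretory progenitors (31 and 19), enteroendocrine cells or EEC (54 and 20), tuft cells (40 and 38) and intraepithelial lymphocytes or IEL (50 and 18). Of 36 marker genes of the types, 33 were highest in their own type in both libraries, the others being Ascl2, Pcna and Atoh1. The median mitochondrial share was 10.2% and 5.55%. The EEC of replicate 2 also held lymphocyte RNA: all 9 lymphocyte markers were detected, summing to 1291 CPM (UMIs scaled to the same library total), 12.4% of the IEL level of that library, against 1 of 9 and 3.22 CPM in replicate 1. In enterocytes the same sum was 37.5 and 147 CPM. The deleted locus itself was not read, so the genotype labels were not checked.

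Levels are given as CPM of each cell type's summed UMIs, replicate 1 first and replicate 2 second. Of the 10 genes, 9 passed the filter on low counts and were tested. H2-Q1 passed it through enterocytes alone, where it is high, so its values between epithelial types are given as a description. The 8 tested genes other than H2-Q1 were all called different among the 9 epithelial types (edgeR quasi-likelihood test with a term for the mouse, adjusted p from 8.68e-18 for H2-Q2 to 5.45e-07 for Tapbp), as were 77.3% of 11013 genes. The cell types were named from the expression of these same cells, so the p-values describe how far apart the classes stand and are not a test of independent groups. Without the mouse term 5 of the 9, with H2-Q1 kept among the 9, were called, and 51.7% of all genes. With 1 library per mouse, the replicates are separate animals.

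**Figure D1:**
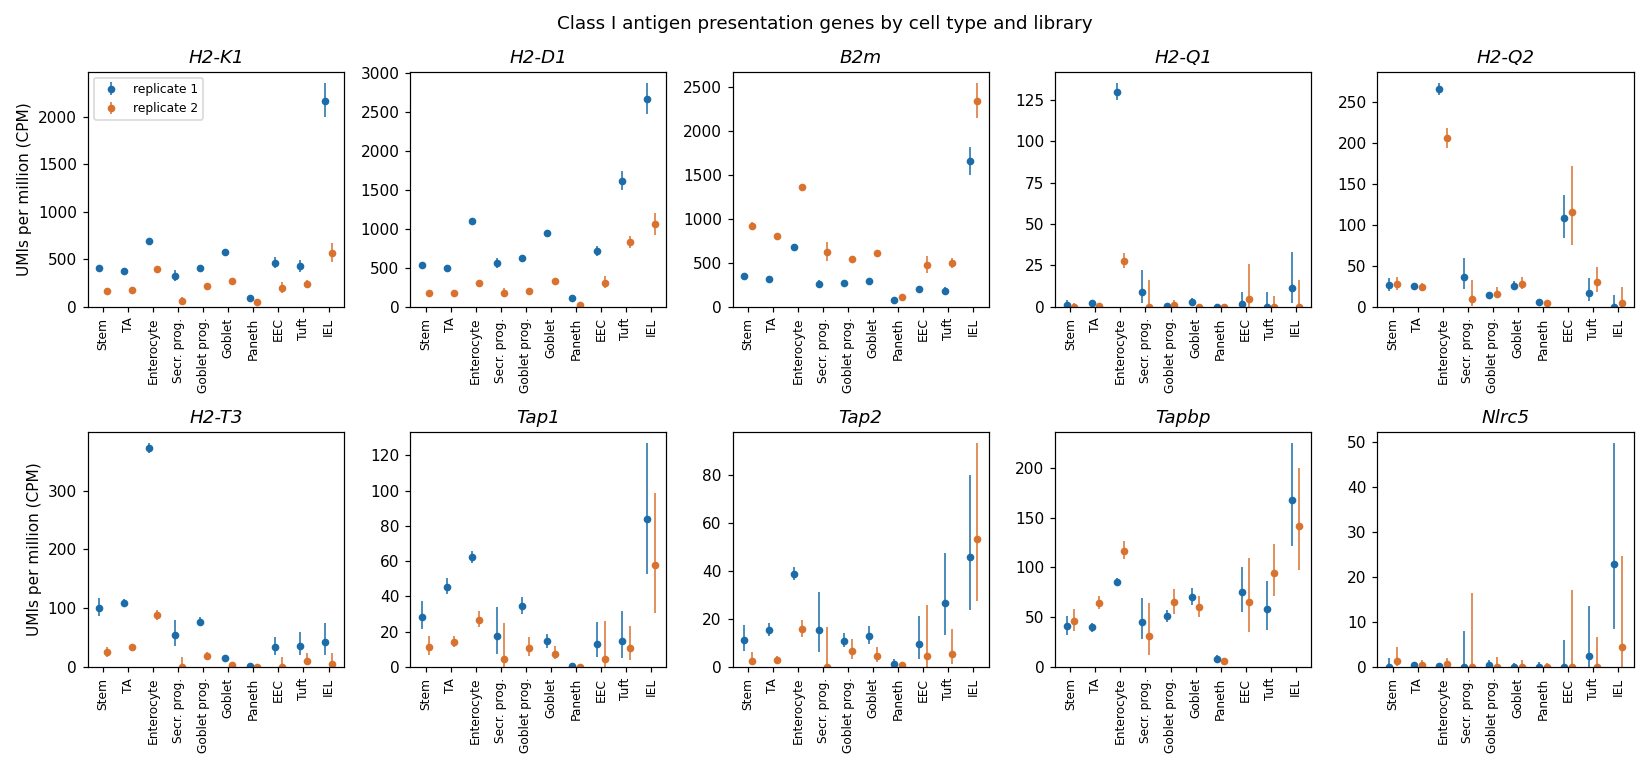
CPM (vertical axis, linear, from 0) of each of the 10 genes in the 9 epithelial types and IEL; points are the libraries (blue, replicate 1; orange, replicate 2) and bars are exact 95% Poisson intervals for counting error. Every gene but H2-D1 and Nlrc5 was highest in enterocytes among the epithelial types, B2m was higher in replicate 2 and H2-K1, H2-D1 and H2-T3 were higher in replicate 1.

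Among the heavy chains of the classical pathway, H2-K1 was read at 692 and 398 CPM in enterocytes, 577 and 269 in goblet cells and 406 and 170 in stem cells. It ranged from 326 to 462 CPM in the other types of replicate 1 and from 62.5 to 239 in those of replicate 2, leaving out Paneth cells, where it was 93.9 and 51.8. In CPM enterocytes lay first and goblet cells second within each library, though the ranges of the 2 types over the libraries overlapped. With TMM scaling, the normalisation of the test, enterocytes ranked 1 and 2, Paneth cells 2 and 1, and goblet cells 3 in both libraries. H2-D1, the other classical chain, was highest in tuft cells, the chemosensory cells of the epithelium, with 1615 and 827 CPM. Enterocytes followed in replicate 1 (1102 CPM) and lay lower in replicate 2 (305), behind goblet cells (947 and 334) and EEC (712 and 311). The EEC value of replicate 2 rests on 67 UMIs (interval 241 to 395 CPM), which takes in the enterocyte value. The part of lymphocyte RNA in it was not tested. With TMM scaling enterocytes lay above EEC in replicate 2 (294 against 221). Stem cells held 535 and 171 CPM, and transit-amplifying (TA) cells 494 and 172. So the tuft cells, with the highest H2-D1 in CPM, were not the type with the highest H2-K1, where they held 428 and 239 CPM.

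B2m, the light chain shared by all these complexes, was led by enterocytes in both libraries, with 678 and 1361 CPM. In CPM stem cells came second (349 and 916), followed by TA cells (314 and 806). Goblet cells, goblet progenitors and secretory progenitors lay at 254 to 295 CPM in replicate 1 and 542 to 625 in replicate 2. EEC (198 and 478) and tuft cells (184 and 498) held less, and Paneth cells least (72.8 and 117). With TMM scaling the order behind enterocytes changed. Paneth cells then ranked 2 in both libraries, goblet cells 3 and 4, stem cells 4 and 3, and TA cells 5 in both. In CPM, tuft cells stood first of the 9 types for H2-D1 and at rank 8 and 7 for B2m. With TMM scaling enterocytes passed them for H2-D1 in replicate 1 (1131 against 1103), and their ranks for B2m were 9 and 8.

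The products of the H2-Q genes are class Ib chains, and H2-Q1 and H2-Q2 were highest in enterocytes. H2-Q1 was at 130 and 27.9 CPM there. In every other epithelial type it was at or below 8.69 CPM, and it had 0 UMIs in Paneth and tuft cells of both libraries. The 2 stem cell sums held 2 and 0 UMIs, that is 1.12 CPM (exact Poisson interval 0.136 to 4.05) and a limit of 1.87 CPM that a count of 0 allows. H2-Q2 was at 266 and 206 CPM in enterocytes, and second in EEC at 108 and 116 CPM, with all remaining types at or below 36.9. The 2 libraries did not overlap between enterocytes and EEC, nor between EEC and the next type.

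H2-T3, the TL antigen gene, was at 372 and 88.3 CPM in enterocytes, 109 and 33.6 in TA cells and 101 and 24.9 in stem cells. Goblet progenitors (77.2 and 18.6) came next, then secretory progenitors (54.3 and 0), tuft cells (36.3 and 10.7), EEC (33.8 and 0) and goblet cells (15.3 and 3.58), with Paneth cells at 1.42 and 0.229. The order of the first 4 types was the same in both libraries, though the libraries themselves were so far apart that the values of neighbours overlapped. Cell by cell, 97.4% of the enterocytes of replicate 1 held an H2-T3 UMI, and 68.3% of those of replicate 2. With each cell thinned to 5000 UMIs the shares were 82.3% and 37.7%, against 41.9% and 5.98% of stem cells. Paneth cells, which were read at median depths of 44683.5 and 80820 UMIs against 16975 and 13405 in enterocytes, held one in 6.41% and 1.85% of cells.

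The transporter and its loading factor were read at lower CPM. Tap1 was at 62.4 and 26.9 CPM in enterocytes and second in TA cells at 45.6 and 14.0. Tap2 was at 38.8 and 15.7 CPM in enterocytes, with the other types at 0 to 26.6. Tapbp was at 85.5 and 117 CPM in enterocytes, and 39.8 to 75.7 and 31.2 to 94.7 in the other types apart from Paneth cells (8.25 and 5.73). Nlrc5, the transactivator of the set, was barely read: 14 UMIs and 9 UMIs in all epithelial cells of the libraries, 2.42 CPM at most in any type. It was not tested, and at this depth no difference between epithelial types was detectable.

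Enterocytes were compared with stem cells because they are the absorptive end of the lineage that begins with these stem cells. The 8 tested members other than H2-Q1 were all higher in enterocytes, where 27.8% of genes tested were higher and 23.5% lower, with a median log2 difference of 1.48 over the 8 against 0.06 over all genes. The differences, on the log2 scale with standard error, were 3.42 ± 0.23 for H2-Q2 (adjusted p = 2.45e-13), 2.34 ± 0.34 for Tap2 (adjusted p = 8.72e-07) and 2.15 ± 0.22 for H2-T3 (adjusted p = 1.16e-09). That of H2-Q1, a description, was 7.34 ± 0.51 and rests on 2 UMIs in stem cells. The remaining 5 lay between 1.04 and 1.49, from B2m (1.04 ± 0.16, adjusted p = 1.99e-06) through H2-D1 (1.24 ± 0.18), H2-K1 (1.27 ± 0.19) and Tapbp (1.48 ± 0.22) to Tap1 (1.49 ± 0.23). Each of the 8 members other than H2-Q1 was also higher in enterocytes within each library. The share of all genes with the same direction in both libraries was not counted. Without the mouse term 3 of the 9 tested members were called, H2-Q1 among them, where 16.7% of all genes were higher. B2m, H2-K1, H2-D1, H2-T3, Tap1 and Tap2 kept log2 differences of 0.92 to 2.29 with adjusted p from 0.0544 to 0.424.

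Of the genes that serve the same pathway, 12 other class I and class I-like heavy chains were present in the matrices of 15 listed. In enterocytes against stem cells 4 of the 8 tested were higher and 1 lower, with a median log2 difference of 0.86, where 27.8% and 23.5% of all genes were. H2-T23, which encodes the chain Qa-1, was higher by 2.74 ± 0.31 on the log2 scale and H2-Q10 by 2.41 ± 0.50. Cd1d1, which presents lipids, was lower (-3.16 ± 0.89, adjusted p = 0.00383), with 0.4 CPM or less in enterocytes. Of 10 genes of peptide supply and folding, such as the immunoproteasome subunits and the chaperones calreticulin and calnexin, 7 were higher and 0 lower (median 0.80). Of 12 tested upstream regulators, which carry interferon signals or bind these promoters, 6 were higher and 0 lower (median 0.54), led by the kinase gene Jak2 (1.98 ± 0.28).

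**Figure D2:**
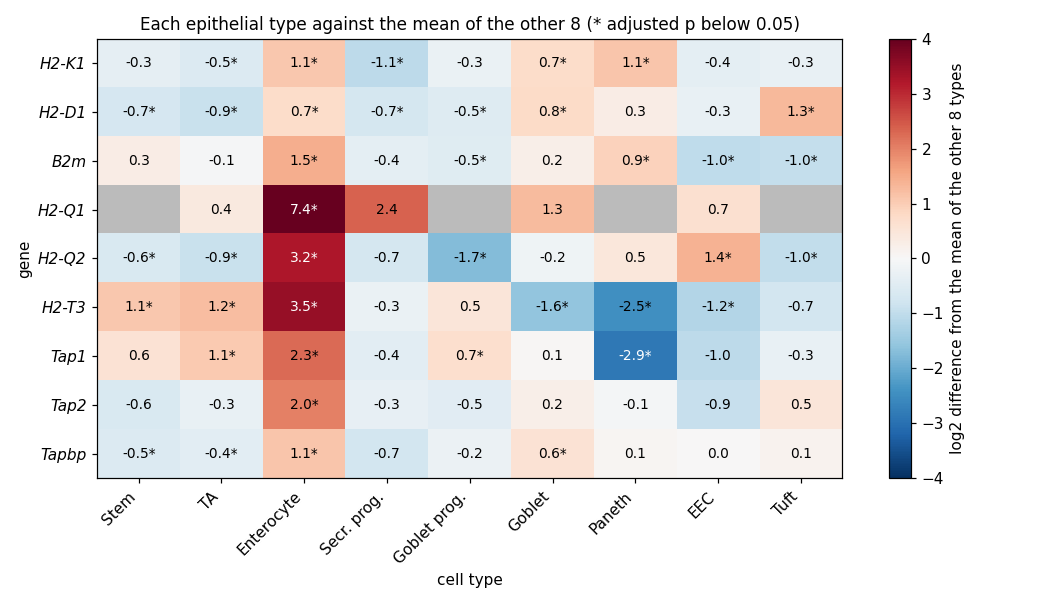
Log2 difference (colour and number) of each of the 9 tested genes in each epithelial type from the mean of the other 8, on the TMM-normalised scale; stars mark adjusted p below 0.05, grey cells have a standard error of 2 or more and are not read, and the colour scale ends at 4. Enterocytes are red for all 9 genes, and tuft cells stand out for H2-D1 (1.28).

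Each epithelial type was then set against the mean of the other 8, and 39 of 81 gene and type pairs were called, as were 24.8% of the pairs over all genes. The 39 take in H2-Q1 in enterocytes, which is a description. Without the mouse term 9 were, and 13.3% of the pairs over all genes. In enterocytes the 8 members other than H2-Q1 were higher, from 0.72 ± 0.12 for H2-D1 to 3.24 ± 0.13 for H2-Q2 and 3.48 ± 0.14 for H2-T3, where 31.3% of genes were higher. The difference of H2-Q1, a description, was 7.38 ± 0.27.

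In tuft cells H2-D1 was higher by 1.28 ± 0.12 (adjusted p = 1.3e-09), as were 10.0% of genes, while B2m (-0.96 ± 0.14) and H2-Q2 (-0.99 ± 0.31) were lower, as were 5.98%. EEC had higher H2-Q2 (1.38 ± 0.23, adjusted p = 2.24e-05) and lower B2m (-1.01 ± 0.14) and H2-T3 (-1.18 ± 0.35), where 13.5% and 8.12% of genes were higher and lower. IEL held 0 and 4.44 CPM of H2-Q2, and the EEC of replicate 1, with 1 of 9 lymphocyte markers detected, held 108 CPM of it. The part of the lymphocyte RNA of replicate 2 in the B2m and H2-T3 values was not tested.

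Goblet cells were higher for H2-D1 (0.76 ± 0.12), H2-K1 (0.73 ± 0.14) and Tapbp (0.57 ± 0.16) and lower for H2-T3 (-1.57 ± 0.26), where 17.8% and 11.4% of genes were called. Goblet progenitors were lower for H2-Q2 (-1.72 ± 0.22), H2-D1 (-0.52 ± 0.14) and B2m (-0.48 ± 0.12), as were 3.22% of genes, and higher for Tap1 (0.66 ± 0.22, adjusted p = 0.0447), as were 8.93%. Secretory progenitors were lower for H2-K1 (-1.06 ± 0.19) and H2-D1 (-0.70 ± 0.16), as were 1.26% of genes.

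The stem and TA cells, which divide, had H2-T3 above the mean of the other 8 types and H2-D1 below it. Stem cells had higher H2-T3 (1.07 ± 0.20, adjusted p = 0.000164; 15.4% of genes were higher) and lower H2-D1 (-0.67 ± 0.14), H2-Q2 (-0.60 ± 0.21) and Tapbp (-0.54 ± 0.19), where 10.1% of genes were lower. TA cells had higher H2-T3 (1.22 ± 0.17) and Tap1 (1.06 ± 0.19, adjusted p = 6.06e-05), where 19.2% of genes were higher, and lower H2-D1 (-0.88 ± 0.14), H2-Q2 (-0.88 ± 0.18), H2-K1 (-0.53 ± 0.15) and Tapbp (-0.42 ± 0.16), where 13.6% were lower.

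Paneth cells, whose 10 most abundant genes took 82.6% and 81.9% of their UMIs, were lowest of the epithelial types for B2m, H2-K1, H2-D1, H2-Q2, Tap1 and Tapbp in CPM in both libraries. After TMM normalisation, which scaled them by factors of 0.156 and 0.121, B2m (0.93 ± 0.12) and H2-K1 (1.10 ± 0.15) were higher than the mean of the other 8 types, where 15.5% of genes were higher, and Tap1 (-2.85 ± 0.69) and H2-T3 (-2.47 ± 0.49) were lower, where 11.4% were lower. The direction for B2m and H2-K1 thus turns with the scaling. That for Tap1 and H2-T3 does not, but few UMIs were read in Paneth cells: 2 and 0 for Tap1, 5 and 1 for H2-T3.

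The calls that also held under every alternative with the mouse term were those of the 8 members other than H2-Q1 in enterocytes, B2m and H2-D1 in tuft cells, B2m and H2-Q2 in EEC, H2-K1 and H2-D1 in goblet cells, H2-Q2 in goblet progenitors, both of secretory progenitors, H2-D1 and H2-T3 in stem cells, and H2-D1, H2-Q2, H2-T3 and Tap1 in TA cells. Each other call was lost under at least 1 of them, among them all 4 of Paneth cells once cells were thinned to 5000 UMIs.

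The annotation divides enterocytes into 5 numbered clusters, which differ in Fabp2, a lipid-binding protein of mature absorptive cells, from 1357 and 1008 CPM in cluster 2 to 33282 and 49016 in cluster 1. The proliferation gene Mki67 was at 20.6 and 28.2 CPM in cluster 2 and 0 in cluster 1. The clusters were built from these cells, so their values are a description. H2-Q1 went from 2.86 and 0.655 CPM in cluster 2 to 327 and 91.8 in cluster 1, and H2-Q2 from 42.3 and 44.5 to 560 and 590. H2-T3 went from 177 and 57.0 to 588 and 130, B2m from 395 and 982 to 1134 and 2649, and H2-K1 from 434 and 190 to 1148 and 905. All were higher in cluster 1 than in cluster 2 in both libraries. The median mitochondrial share was 15.1% and 9.65% in cluster 1, the highest of the clusters, and 10.2% and 5.89% in cluster 2, the lowest, and its part in these values was not tested. Tap1 hardly varied in replicate 1, at 58.9 to 67.2 CPM over the 5 clusters, and lay at 17.7 to 44.1 CPM in replicate 2. H2-D1 went from 753 and 250 in cluster 2 to 1593 and 417 in cluster 1. Not all members followed the Fabp2 order. B2m (372 and 929 CPM) and H2-D1 (623 and 236) were lowest in cluster 6 in both libraries, as was H2-K1 in replicate 1 (359). In replicate 1 H2-D1 was highest in cluster 9 (1600 CPM). Of the members tested, H2-Q1 spread most over the clusters in both libraries, and Tap1 spread least in replicate 1.

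**Figure D3:**
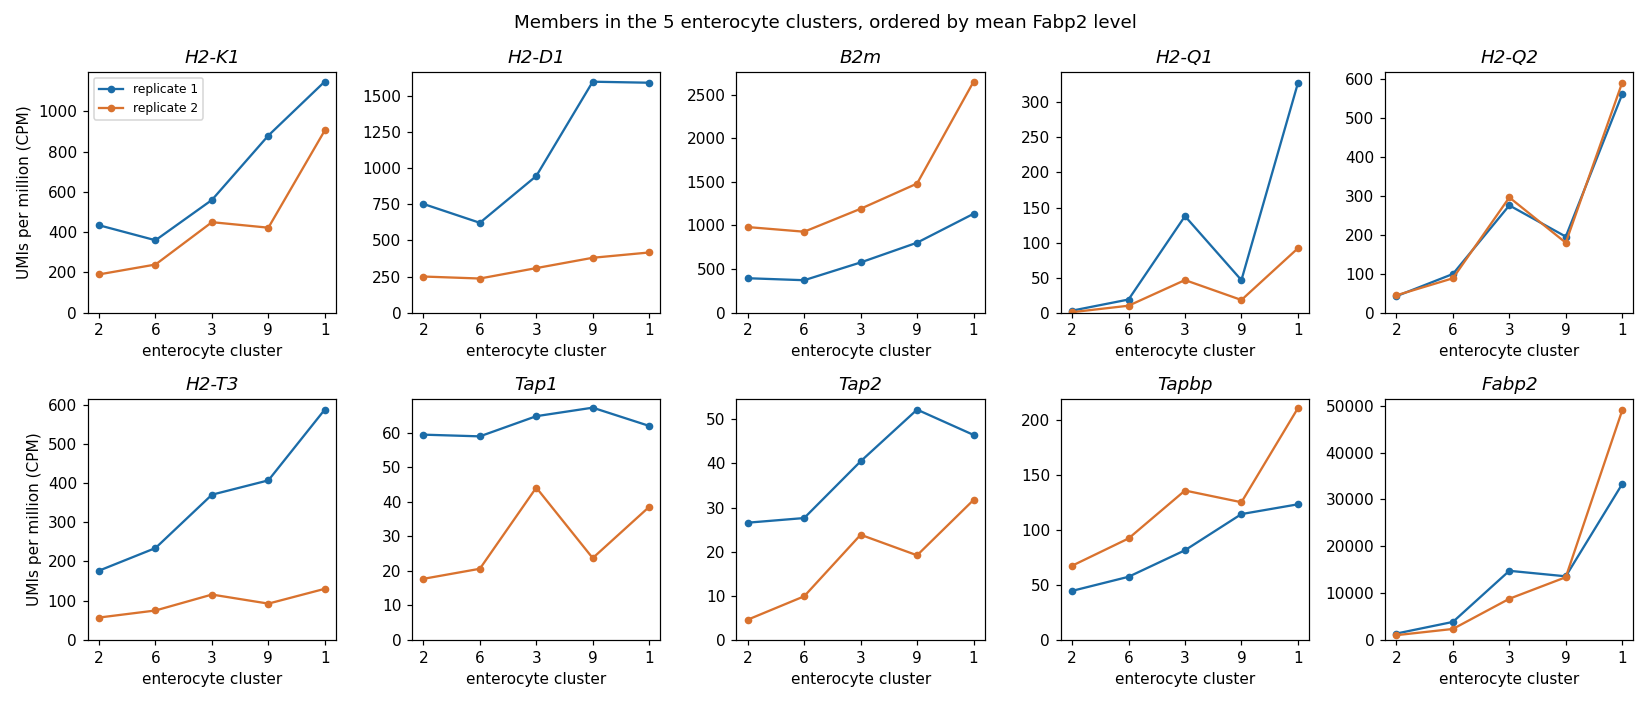
CPM (linear, from 0) of the 9 tested genes and of Fabp2 in the 5 annotated enterocyte clusters, ordered by mean Fabp2, with 1 line per library. H2-Q1 and H2-Q2 were lowest in cluster 2 and highest in cluster 1 in both libraries, while Tap1 stayed between 58.9 and 67.2 in replicate 1.

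The genes whose log2 CPM followed each member most closely over the 18 epithelial sums, with each mouse's mean removed, are given as a description, since the points share libraries and depth. H2-Q1 was most like Slc2a2, the basolateral glucose transporter gene (r = 0.96), Slc5a4a (0.94) and Arl4a (0.94). H2-T3 was most like Tinag (0.95), Tmem37 (0.93) and Chchd10 (0.93), and H2-Q2 most like Pink1 (0.93), Pgrmc1 (0.93) and Por (0.92). Tap1 followed Nfe2l2 (0.96), Cryl1 (0.95) and Rbks (0.95), and Tap2 followed Coro7 (0.91), Cyp4f13 (0.91) and Acad11 (0.91). The nearest to H2-K1 were Ctsd, a lysosomal protease gene (0.96), B3galt4 (0.93), which lies in the H2 region, and Hpgd (0.93). H2-D1 was nearest to Atp6v1e1 (0.92), Cript (0.91) and Zfand5 (0.90), B2m to Ghitm (0.93), Fbln1 (0.92) and Glo1 (0.92), and Tapbp to Ndfip2 (0.91), Sema4a (0.91) and Cdc42 (0.90). Among the members themselves, the 36 pairs had a median r of 0.50, from 0.81 for H2-K1 with Tap2 down to -0.06 for H2-K1 with Tap1. No member was among the 3 nearest genes of another.

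IEL are lymphocytes that lie between the epithelial cells, and their class I level was set against the epithelium. B2m was at 1657 and 2342 CPM in IEL, H2-K1 at 2171 and 563 and H2-D1 at 2662 and 1056, each above every epithelial type of the same library in CPM. With TMM scaling H2-K1 of replicate 2 was at 425 in IEL and 441 in Paneth cells. Of 5 markers of antigen-presenting cells, 5 and 4 were detected in IEL, summing to 6230 and 6419 CPM, against 30.7 to 1307 and 76.8 to 1498 in the epithelial types and 19258 and 10389 for the lymphocyte markers in IEL. Among them Cd74 was at 4299 and 5851 CPM, Lyz2 at 1824 and 57.7, and Csf1r at 7.62 and 0. The part of this RNA in the IEL values was not tested. Against the mean of the 9 epithelial types, 6 of 9 members were higher, where 16.4% of 11402 genes were, with a median log2 difference of 1.73 over the members against -0.06 over all genes. These were Tap1 (2.23 ± 0.34), Tap2 (2.20 ± 0.45), B2m (1.93 ± 0.13, adjusted p = 2.38e-14), H2-D1 (1.73 ± 0.13), H2-K1 (1.71 ± 0.18) and Tapbp (1.22 ± 0.24, adjusted p = 0.000106). H2-Q2 was lower (-4.35 ± 0.83, adjusted p = 8.5e-05), as were 13.6% of genes, a size that rests on 0 and 1 UMI. H2-Q1 (11.4 and 0 CPM) and H2-T3 (41.9 and 4.44 CPM) did not pass the test, with adjusted p of 0.179 and 0.341. When cells were thinned to 5000 UMIs, Tapbp, Tap2 and H2-Q2 no longer passed (adjusted p = 0.252, 0.117 and 0.0972). Nlrc5 was read in IEL at 22.8 CPM (6 UMIs, interval 8.39 to 49.7) and 4.44 CPM (1 UMI, interval 0.112 to 24.7).

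In IEL against the mean of the 9 epithelial types, the comparison used for each list below, 16.4% of 11402 genes were higher and 13.6% lower. Of the other heavy chains, 5 of 8 tested were higher in IEL and 0 lower, led by H2-Q7 (5.21 ± 0.37) and H2-M3 (3.17 ± 0.45). These counts leave out H2-Q6 (5.26 ± 0.57), a description, since it passed the filter through IEL alone. H2-Q7 was at 236 and 138 CPM in IEL, and at 13.9 CPM or less in every epithelial type. H2-Q2 was thus highest in enterocytes and H2-Q7 in IEL. H2-Q1 was also highest in enterocytes and H2-Q6 in IEL, but each passed the filter through that type alone, so their places are a description. H2-Q4 and H2-Q10 were not placed here, so this contrast does not cover all H2-Q genes. Of the genes of peptide supply and folding, 5 of 10 were higher and 2 lower, these being the chaperone gene Canx (-1.08 ± 0.22) and Pdia3 (-0.55 ± 0.17). Of the upstream regulators 5 of 12 were higher and 0 lower.

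Between the 2 mice the class I genes differed in both directions. A ratio of the libraries was formed in each epithelial type and averaged over types on the log scale. There is 1 library per mouse, so no test of a difference between mice can be made, and mouse and library cannot be told apart. Of the 2724 genes that reached 50 CPM in either library, 6.28% were 2-fold or more higher in replicate 1 and 3.78% in replicate 2. Their median ratio was 1.16, replicate 1 over replicate 2. The ratios and 2-fold counts given here were not adjusted for this shift. Of the 10 members 6 reached that level, and 3 were 2-fold or more higher in replicate 1 and 1 in replicate 2.

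H2-T3 was 3.87-fold higher in replicate 1 (3.25 to 4.29 over the 6 types with enough UMIs). H2-D1 was 2.94-fold higher (1.95 to 4.05 over 9 types) and H2-K1 2.24-fold (1.74 to 5.21). All 9 types lay in that direction for each of these genes. B2m went the other way, 2.25-fold higher in replicate 2 (1.60 to 2.71), again in 9 of 9 types. H2-Q2 (1.12-fold higher in replicate 1, with 4 of 9 types higher there, but 1.98-fold with all epithelial UMIs pooled) and Tapbp (1.07-fold higher in replicate 2, with 5 of 9 types higher there) had no common direction over the types. So H2-K1, H2-D1 and H2-T3 were higher in replicate 1 and B2m in replicate 2, in every epithelial type. All types of a replicate came from the same library, so their agreement is not replication.

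The genes under 50 CPM are given by their values. Tap1 was 2.33-fold and Tap2 3.34-fold higher in replicate 1, each over 6 types, and H2-Q1 3.77-fold over 2 types. Nlrc5 had too few UMIs for a ratio over types. In IEL the same side was higher for H2-K1 (2171 against 563 CPM) and H2-D1 (2662 against 1056), and for B2m replicate 2 was higher (2342 against 1657), while Tap1 was at 83.8 and 57.7 and Tap2 at 45.7 and 53.2.

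**Figure D4:**
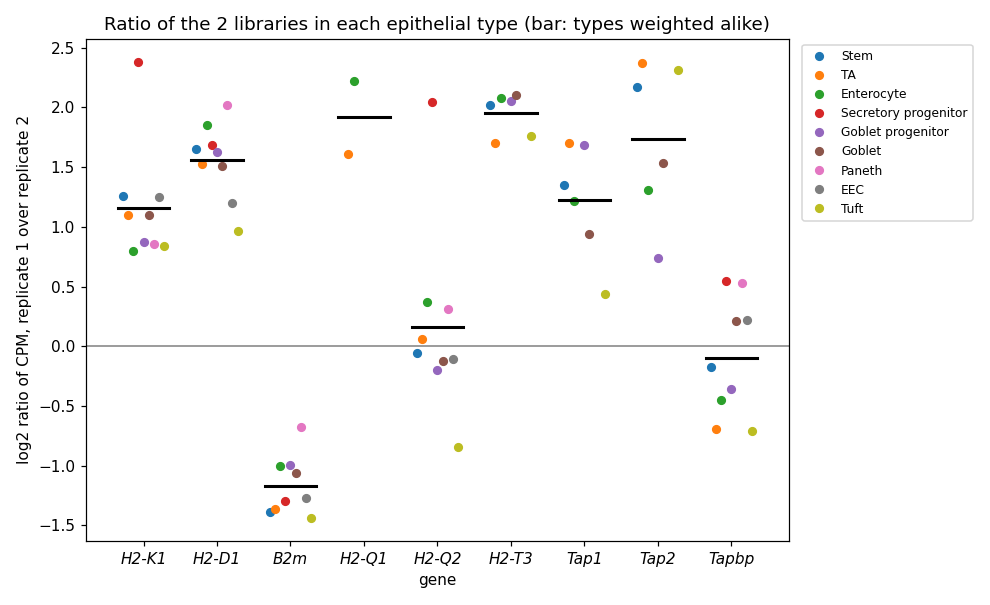
Log2 ratio of CPM, replicate 1 over replicate 2, of the 9 tested genes in each epithelial type with UMIs in both libraries and 10 or more together (coloured points), with the value that weights types alike (black bar). All types of H2-K1, H2-D1 and H2-T3 lie above 0 and all types of B2m lie below it.

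Since 5 of the 6 members at that level lie in the H2 complex, their neighbours on chromosome 17 from 33 to 38 Mb were read in the same way. Of 31 genes there at 50 CPM or more, 5 (16.1%) were 2-fold or more higher in replicate 1, and 4 (12.9%) in replicate 2. Without the members, 2 of 26 genes (7.69%) and 4 of 26 (15.4%) were, against 6.28% and 3.78% of all 2724 genes. The 5 higher in replicate 1 were the members H2-T3, H2-D1 and H2-K1 with Psmb8 (3.84-fold) and Psmb9 (3.56-fold), the immunoproteasome genes that flank Tap1. On the other side, Rps18 was 62.3-fold higher in replicate 2 (85.7 against 5121 CPM as a mean over types), Rps28 10.8-fold and the class II gene H2-Eb1 9.58-fold. Among the 107 such genes of chromosome 17 outside this window, 5 and 5 passed 2-fold. The differences of the region therefore ran in both directions, and were larger for Rps18, Rps28 and H2-Eb1 than for any member. Of the genes of peptide supply outside the region, Psmb10 was 1.69-fold and Pdia3 1.66-fold higher in replicate 1, and Psme2 was 1.11-fold higher in replicate 2.

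**Figure D5:**
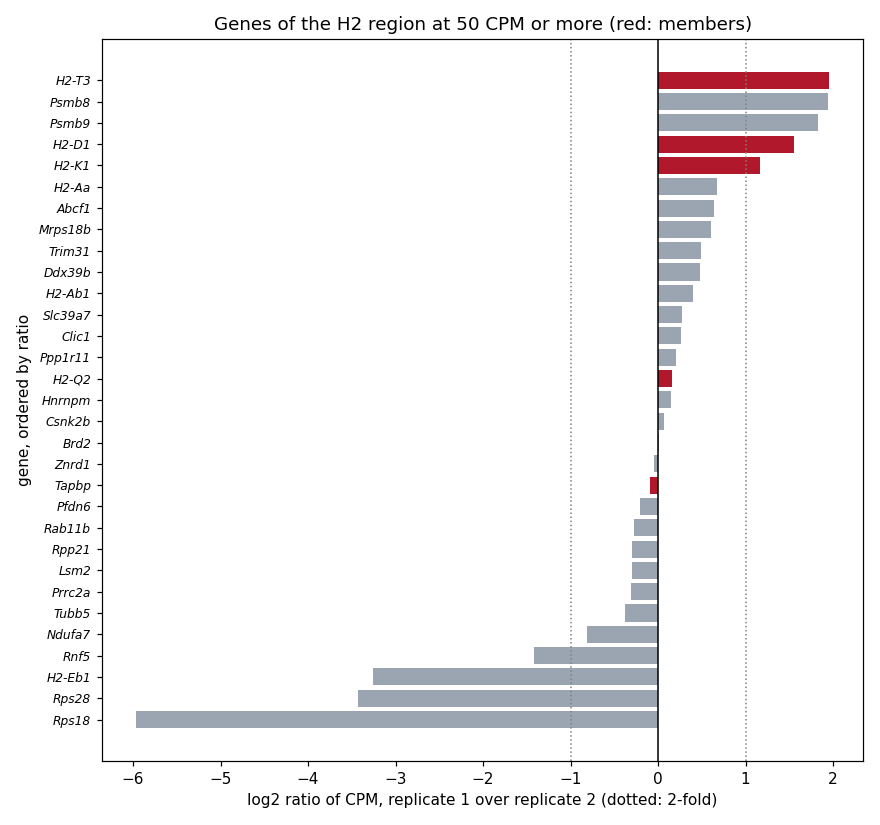
Log2 ratio of CPM, replicate 1 over replicate 2, with types weighted alike, of the 31 genes between 33 and 38 Mb of chromosome 17 that reached 50 CPM in either library, ordered by the ratio; red bars are members. H2-T3, Psmb8, Psmb9, H2-D1 and H2-K1 pass 2-fold towards replicate 1, and Rps18 lies farthest towards replicate 2.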

How the data were processed

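Single-cell suspensions of jejunal crypts from 2 mice were sequenced with a 10x 3′ chemistry. Per the study's methods and the submitters' processing notes, the authors aligned reads to mm10 with Cell Ranger 3.0.1 and deposited UMI counts per gene and barcode; ambient RNA was removed with SoupX, and whether these matrices precede that step is not stated in the sources used here. Seurat (3.2.1 in the notes) was used for clustering, cells with fewer than 1500 genes or over 25% mitochondrial UMIs were removed, doublets were removed with scDblFinder, and cell types were named by the authors. The deposited tables hold 2937 further cells that belong to no sample used here. The authors' sctransform values were not used.

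Here, UMI counts of the kept cells were summed per library and annotated type (18 epithelial sums, 20 with IEL, each of at least 10 cells). edgeR 4.0.16 (filterByExpr, TMM, robust quasi-likelihood test, two-sided, Benjamini-Hochberg over all genes tested, threshold 0.05) was fitted with terms for cell type and mouse. The fit was run on simulated counts with independent sums and no mouse effect. That check does not cover sums that share mice or types named from the same cells. All types came from the same 2 animals, so the mouse pairs the sums. Intervals and limits (95%, 3 counts for a count of 0) cover counting error only. DESeq2 1.42.0 (likelihood ratio test for differences among types, otherwise Wald test), no low-count filter, thinning to 5000 UMIs, a 10% mitochondrial limit, leaving out Paneth cells, EEC or a replicate, and other weightings of the mouse ratio were alternatives; leaving out EEC was added after seeing the data. Ratios used types with UMIs in both libraries and at least 10 together. The members and lists were chosen with earlier results of these data known. Genes outside the members were named by rule: up to 3 per direction and comparison with the largest called difference, the 3 most correlated with each member, and the 3 highest and lowest ratios in the H2 region. Psmb10, Pdia3 and Psme2 ratios, H2-Q7 levels and the lymphocyte markers were added to show a contrast. Coordinates are from GENCODE M21, matched by symbol.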

Additional observations from a re-analysis of the deposited data

Results flagged for a closer look

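The matrices also hold barcodes that the authors did not keep as cells, 5583 in replicate 1 and 58 in replicate 2, and the members were read in them above the limit that a count of 0 allows. In these barcodes H2-K1 was at 608 and 114 CPM (replicate 1, then replicate 2), H2-D1 at 827 and 103, and B2m at 447 and 291. H2-Q2 was at 102 and 14.6 CPM, H2-T3 at 121 and 7.94, and H2-Q1 at 55.0 in replicate 1. Tapbp was at 66.4 and 29.8 CPM, Tap1 at 34.3 and 4.63, Tap2 at 27.8 and 3.31, and Nlrc5 at 2.46 in replicate 1. B2m, unlike in the kept epithelial types, was higher in replicate 1 than in replicate 2 here. The barcodes that were not kept held a median of 1581 UMIs in replicate 1 and 19374.5 in replicate 2, so they are not the same kind of barcode in the libraries, and what they contain was not tested.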

How the results depend on the processing

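Taking out the replicate block (the mouse term) lowered the members called among epithelial types from 9 to 5, those higher in enterocytes than in stem cells from 9 to 3 (all genes, either direction: from 5650 to 3309), and the gene and type pairs called from 39 to 9. H2-Q1 was kept among the tested members in these counts, though its values between epithelial types are a description. Thinning cells to 5000 UMIs, which leaves 11 of 50 IEL of replicate 1, lowered the genes called to 3741 for enterocytes against stem cells and from 3418 to 1320 for IEL, and the members lower in IEL from 1 to 0. With all epithelial UMIs pooled, 0 members, in place of 1, were 2-fold higher in replicate 2, and B2m was 1.70-fold higher there. H2-Q1, with few UMIs outside enterocytes, changed sign: its IEL difference went from 2.35 to -1.69 when thinned and ranged from -1.18 to 1.74 when 1 replicate was left out, and its mouse ratio (log2) went from 1.92 to -0.087 under the stricter cell filter. The other 60 summary values and 469 single-gene values stayed on the same side, 70 single-gene calls were lost with their direction kept and 22 mouse ratios moved by more than the spread. With 1 replicate left out no test remained, and the 8 tested members other than H2-Q1 were still higher in enterocytes than in stem cells. The share of all genes that kept their direction in this way was not counted.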

Other observations

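Within the H2 region, values of 2 other heavy chain genes under 50 CPM differed between the libraries in opposite directions: H2-T22 was at a mean over types of 5.89 and 27.7 CPM (4.46-fold higher in replicate 2), and H2-M3 at 7.13 and 2.30 CPM. These genes were chosen after their values were seen, and the differences have no replicate check.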
